A study of Homo sapiens with 6 samples.

Results

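The FOX, SOX, KLF and GATA genes encode 4 families of transcription factors, and their RNA was compared between MDA-MB-231 cells that received control siRNAs (si-CTRL) and MDA-MB-231 cells that received siRNAs targeting SAM68 (si-SAM68), each as a pool. MDA-MB-231 is a human cell line of triple-negative breast cancer (TNBC), and Sam68 is an RNA-binding protein encoded by KHDRBS1 that takes part in splicing. Members were chosen by symbol alone, as FOX with a letter from A to S and a number (FOXM1 left out), SOX with a number, KLF with a number and GATA1 to GATA6. This gave 85 genes of the 74852 loci in the deposited table, which were 43 FOX, 19 SOX, 17 KLF and 6 GATA genes. All 6 libraries, 3 per group, came from the same cell line. The siRNA pool is the only difference between the groups that the sample labels give. For every library the labels give 2 rounds of transfection and a harvest 24 h after the last one. The methods of the paper give another interval without naming the round. The values are normalized read counts, the reads on each locus divided by the size factor of its library, in RNA of whole cultures, where fewer cells with a transcript and less of it in each cell cannot be told apart.

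FOX proteins bind DNA through a winged-helix domain called forkhead, and some of them, the FOXA proteins, can bind closed chromatin. SOX proteins carry an HMG box that bends DNA. KLF proteins bind GC-rich and CACCC boxes through zinc fingers at the end of the protein, like the related SP proteins, and GATA proteins bind the letters that gave them their name through their own zinc fingers. In the breast, FOXA1 and GATA3 are known as factors of luminal cells, whereas FOXC1, FOXC2 and SOX9 have been linked to basal-like, mesenchymal or progenitor states.

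RefSeq (GRCh38.p14) gave a promoter for 62 of the 85 members, and the 250 bases before the annotated start, which need not be the start used in these cells, were searched on both strands for 4 motifs, as a description without a test or a match on GC content. The letters GGGCGG, a GC box of the kind that SP and KLF proteins bind, were found in 43 of the 62 (69.4%), against 42.6% of all 35116 RefSeq promoters. TGTTT, the core of forkhead sites, was found in 19 (30.6%, against 40.4% of all promoters), ACAAT, a core of SOX sites, in 11 (17.7%, against 24.6%) and AGATAA, the motif of GATA proteins, in 6 (9.68%, against 9.17%). The regions of 4 genes are shown because their values are described below, 2 that fell (FOXC1 and KLF4) and 2 that rose (FOXA1 and KLF9), with capitals for the GC box and the forkhead core in either orientation. They lie at chr6:1609665-1609914 (plus strand), chr9:107489770-107490019, chr14:37595250-37595499 and chr9:70414658-70414907 (minus strand), in the order given.
FOXC1: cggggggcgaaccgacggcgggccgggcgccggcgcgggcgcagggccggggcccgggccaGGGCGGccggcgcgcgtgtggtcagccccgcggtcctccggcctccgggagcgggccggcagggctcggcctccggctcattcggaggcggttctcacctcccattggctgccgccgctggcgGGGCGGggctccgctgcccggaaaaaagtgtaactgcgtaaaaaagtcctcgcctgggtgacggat
KLF4: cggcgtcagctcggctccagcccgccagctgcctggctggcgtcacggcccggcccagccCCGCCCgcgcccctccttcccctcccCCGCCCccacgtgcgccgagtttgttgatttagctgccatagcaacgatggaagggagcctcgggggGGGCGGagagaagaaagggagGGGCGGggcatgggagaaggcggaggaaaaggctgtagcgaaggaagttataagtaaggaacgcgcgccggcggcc
FOXA1: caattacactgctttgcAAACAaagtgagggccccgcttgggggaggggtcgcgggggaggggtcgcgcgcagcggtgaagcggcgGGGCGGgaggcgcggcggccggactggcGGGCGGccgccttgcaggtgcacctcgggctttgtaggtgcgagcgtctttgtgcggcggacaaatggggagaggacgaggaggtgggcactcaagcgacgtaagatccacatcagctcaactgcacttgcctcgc
KLF9: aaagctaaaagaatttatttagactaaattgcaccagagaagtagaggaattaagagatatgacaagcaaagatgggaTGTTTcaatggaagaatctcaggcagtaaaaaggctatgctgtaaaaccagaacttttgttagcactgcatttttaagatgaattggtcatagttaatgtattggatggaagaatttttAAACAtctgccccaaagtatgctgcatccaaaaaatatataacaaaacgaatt
FOXC1 had 2 GC boxes, KLF4 had 4, and FOXA1 had 2 with 1 forkhead core, while KLF9 had 2 forkhead cores and no GC box in this window. A match describes the letters only and is no evidence of binding.

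The depletion was seen at the targeted gene. The normalized read count of KHDRBS1 was 15660.4, 14483 and 14737 in the si-CTRL libraries and 583, 602 and 670.2 in the si-SAM68 libraries, in order of their replicate number as everywhere here, a log2 fold change of -4.60 (adjusted p = 2.13e-09, limma). The libraries held between 52625492 and 82568487 reads, and a rRNA locus took 15.1% of the reads of si-SAM68 replicate 2 and between 1.83% and 3.17% of the others. Defining markers of the line were high, with VIM at 157264, CD44 at 54108 and SPARC at 65464 in si-CTRL cells. ZEB1, from the same marker list, was lower than these, at 5146 in si-CTRL cells. It fell to 3314 in si-SAM68 cells (log2 fold change -0.63, adjusted p = 0.0118, limma). Of the receptors listed as low in TNBC cells, the hormone receptor ESR1 was at 8.22 and PGR was listed at 0 in every library. ERBB2, from the same list, was not near 0. Its locus, joined with MIR4728, had a mean of 2822 with the control pool and 2812 after depletion. The epithelial adhesion genes CDH1 and EPCAM were at 1.61 and 2.44 in si-CTRL cells, and the sum of 4 leukocyte markers was between 6.7 and 19.4.

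Of the 85 members, 14 were listed at 0 in all 6 libraries (9 FOX, 4 SOX and 1 GATA gene), which include SOX2, a factor of pluripotent cells, and GATA1, a factor of red blood cells, both named after their values were seen. Another 11 were under the minimum mean of 10 that was set for the test. Of these 11, 5 reached a mean of 1, which were SOX30 (9.79), SOX17 (9.41), FOXA3 (5.42), FOXJ1 (2.13) and KLF1 (1.08). The 60 members tested were 31 FOX, 10 SOX, 15 KLF and 4 GATA genes, and 4 members lie on loci that the annotation joins with another gene.

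Depletion of Sam68 changed a minority of these factors, and more of them fell than rose. With the thresholds that the paper used, a fold change ≥1.5 with an unadjusted p-value ≤0.05 (limma), 7 of the 60 tested members were regulated, or 11.7%, against 7.67% of all 18849 loci tested. FOXA1 and FOXD4 were upregulated, and FOXA2, FOXC1, FOXC2, FOXK1 and KLF15 were downregulated (2.83% of all loci were up and 4.83% down). By an adjusted p-value under 0.05 (Benjamini-Hochberg over all loci), 13 members changed, or 21.7%, against 10.7% of all loci. That background includes loci without an exon count in GENCODE, of which 6.03% passed, whereas every tested member has a count. Among all loci with a count, 11.8% of those with 1 exon and 13.4% of those with more passed. FOXA1, FOXO3 and KLF9 rose (4.47% of all loci did), and FOXA2, FOXC1, FOXC2, FOXF1, FOXL1, FOXK1, KLF4, KLF15, KLF16 and the locus that joins PINX1 and SOX7 fell (6.23% of all loci did). By family, 2 FOX genes rose and 6 fell of 31, 1 SOX locus fell of 10, 1 KLF gene rose and 3 fell of 15, and none of 4 GATA genes passed in limma or edgeR, of which 2 had an unadjusted p-value under 0.05 and 1 passed in DESeq2. The members were counted here, not tested as a set.

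The estimate was lower in si-SAM68 cells for 47 of the 60 tested members (78.3%), against 49.1% of all loci, and their median log2 fold change was -0.12, against 0.005 over all loci. All si-SAM68 libraries lay outside the range of the si-CTRL libraries for 23 members (38.3%), 7 above and 16 below, against 33.9% of all loci. One library moved with this pattern. In si-CTRL replicate 1, 30 of the 60 members had their highest value of all 6 libraries, against 27.5% of all loci, and without that library 35 of the 60 estimates were lower and the median was -0.07.

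**Figure D1:**
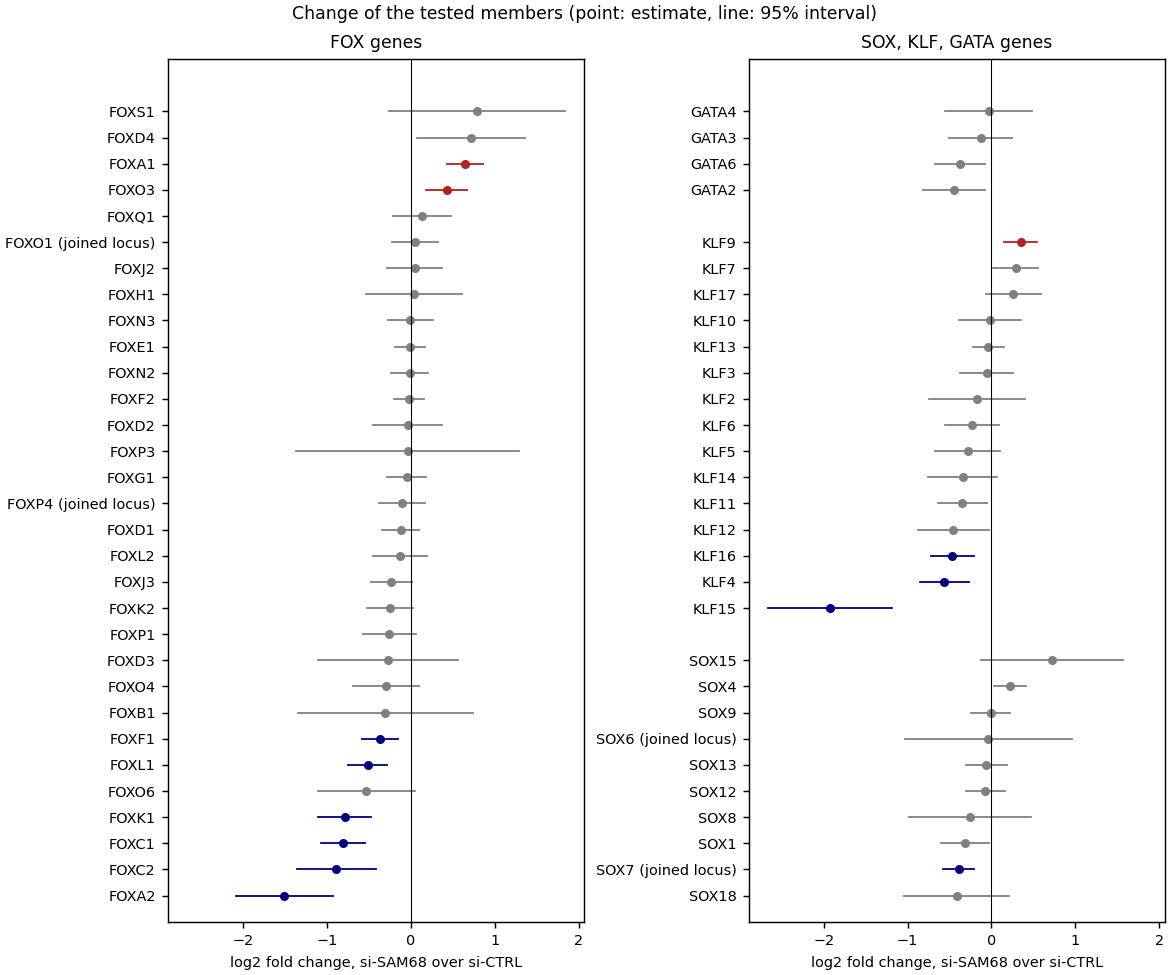
Log2 fold change (x axis) of the 60 tested members, si-SAM68 over si-CTRL, with 95% intervals from limma, FOX genes on the left and GATA, KLF and SOX genes on the right. Red points rose and navy points fell at an adjusted p-value under 0.05, grey points did not pass, and most points lie left of the line at 0 (47 of 60).

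The FOXA genes moved apart. FOXA1, which opens chromatin for the estrogen receptor in luminal breast cells, had normalized read counts of 841, 786 and 851 in the si-CTRL libraries and 1312, 1179 and 1393 in the si-SAM68 libraries. Every si-SAM68 library was above every si-CTRL library. The log2 fold change of FOXA1 was 0.64 (standard error, SE, 0.095, adjusted p = 0.00351, limma), or 157% of the si-CTRL mean. FOXA2, its relative known from endoderm, liver and lung, was low, with 47.5, 42.6 and 41.8 in the si-CTRL libraries and 16.1, 12.9 and 15.6 in the si-SAM68 libraries. The lowest si-CTRL library was far above the highest si-SAM68 library. FOXA2 fell by 1.51 on the log2 scale (SE 0.26, adjusted p = 0.00765, limma), to 33.8% of the si-CTRL mean. FOXA3 was under the minimum. FOXA1 (chromosome 14, 38058759 to 38069245, hg19) and FOXA2 (chromosome 20, 22561637 to 22566101) are on different chromosomes, and both kept an adjusted p-value under 0.05 with each library left out in turn (at most 0.0296 and 0.0344).

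Several of the members that fell were neighbours on the genome. FOXF1, FOXC2 and FOXL1, mesenchymal factors in the embryo, lie in this order on chromosome 16 of hg19, with 52.7 kb between FOXF1 and FOXC2 and 9.58 kb between FOXC2 and FOXL1. All 3 fell. FOXC2 (86600817 to 86602539) went from 654, 360.3 and 373 in the si-CTRL libraries to 222, 235 and 265 in the si-SAM68 libraries. Its si-CTRL replicate 1 stood far above the other si-CTRL libraries, yet the groups did not overlap. The log2 fold change of FOXC2 was -0.89 (SE 0.21, adjusted p = 0.0269, limma), and -0.61 without that library. FOXL1 (86612115 to 86615303) had 1747, 1710.4 and 1921 in control and 1086, 1350.4 and 1340.5 in depleted cells, a log2 fold change of -0.52 (SE 0.11, adjusted p = 0.0155). FOXF1 (86544133 to 86548069) had 4291, 3526 and 4209.5 in control and 2923, 3028 and 3331 in depleted cells, a log2 fold change of -0.37 (SE 0.097, adjusted p = 0.0384). Both genes were lower in every si-SAM68 library than in every si-CTRL library, and the fitted fold between the groups was under 1.5.

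Some other loci of the same stretch had lower estimates too, and others hardly moved. FENDRR, a long noncoding RNA that starts beside FOXF1, was at 221 ± 25.5 (SD, n = 3) and fell to 151 ± 6.52 (log2 fold change -0.55, adjusted p = 0.0337, limma, but 0.0612 with the replicate block). FOXC2-AS1 was at 129 ± 30.1 and 80.6 ± 10.5 (log2 fold change -0.66, adjusted p = 0.0647), past the thresholds of the paper. It overlaps FOXC2 (86598751 to 86601367), and since no source used here says whether strand was used in counting, reads of FOXC2 and FOXC2-AS1 may be shared. LINC00917, at lower coordinates than FENDRR, was at 25.9 ± 7.21 and 12.4 ± 6.92 (log2 fold change -1.15, adjusted p = 0.162), also past those thresholds. MTHFSD, a coding gene between FOXF1 and FOXC2 that belongs to none of the 4 families, was at 395 ± 46.3 and 394.5 ± 20.1 (log2 fold change 0.00), and the locus without a symbol that follows it at 217 ± 14.7 and 214 ± 30.6 (log2 fold change -0.03, adjusted p = 0.926). LINC00917, MTHFSD and this locus are in none of the lists and were named after their values were seen, for their place among these genes.

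FOXC1, a forkhead factor linked to basal-like breast cancer, lies in a second cluster, on chromosome 6 (1610677 to 1614132), 214.8 kb from FOXF2, which in turn is 75.1 kb from FOXQ1. FOXC1 went from 2139.7, 1585 and 1758 in the si-CTRL libraries to 939.9, 1082 and 1090.2 in the si-SAM68 libraries. All si-SAM68 libraries were far below the lowest si-CTRL library. FOXC1 fell by 0.81 on the log2 scale (SE 0.12, adjusted p = 0.00361, limma), to 56.8% of the si-CTRL mean, and its adjusted p-value was at most 0.0259 when any 1 library was left out. The other members of this cluster did not pass. FOXF2 was at 1444 ± 35.6 and 1423 ± 62.0 (log2 fold change -0.02, 95% interval -0.20 to 0.16), and FOXQ1 at 324 ± 49.6 and 356 ± 57.6 (log2 fold change 0.13, 95% interval -0.21 to 0.48). GMDS, the coding gene on the other side of FOXC1, had a log2 fold change of -0.14 (adjusted p = 0.314).

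**Figure D2:**
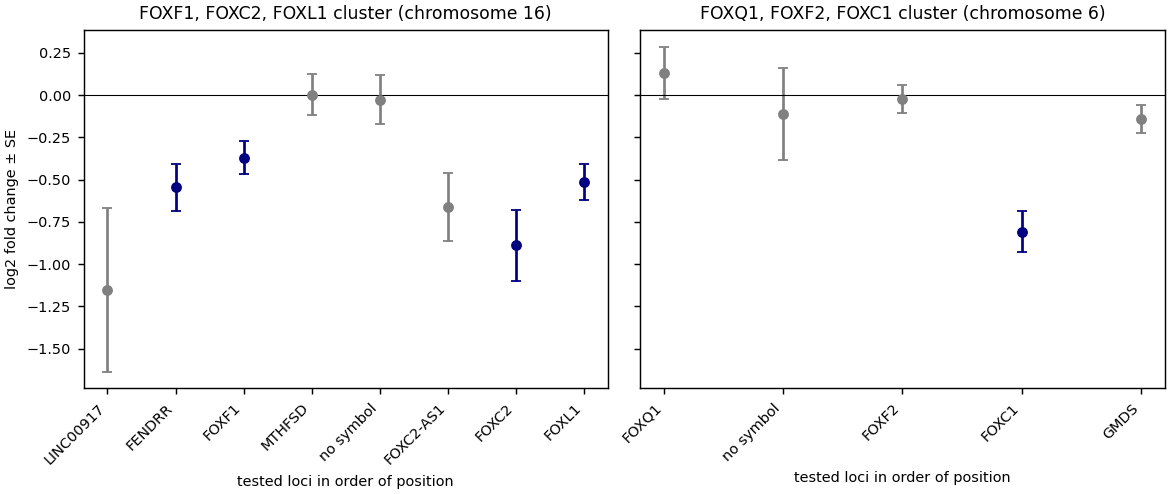
Log2 fold change (y axis, estimate ± standard error from limma) of the tested loci around FOXC2 on chromosome 16 (left) and FOXC1 on chromosome 6 (right), in genomic order along the x axis and not to scale. Navy points fell at an adjusted p-value under 0.05, which FENDRR, FOXF1, FOXC2 and FOXL1 did on the left and FOXC1 alone did on the right.

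Among the forkhead factors that answer to growth signals, FOXO3 and FOXK1 moved in opposite directions. FOXO3, which AKT keeps out of the nucleus and which turns on genes of arrest and stress resistance, had 1923, 1712 and 1486 in the si-CTRL libraries and 2189, 2524 and 2151 in the si-SAM68 libraries. The lowest si-SAM68 library was above the highest si-CTRL library. Its log2 fold change was 0.43 (SE 0.11, adjusted p = 0.0375, limma). FOXO3B, outside the members and on a locus joined with ZNF286B, was at 989 ± 33.6 and 1119 ± 33.8 (log2 fold change 0.18, adjusted p = 0.209). Whether FOXO3 and FOXO3B share reads was not tested. The other FOXO genes did not pass, with FOXO1 at 545 ± 49.0 and 565 ± 71.3 (on a locus joined with LINC00598), FOXO4 at 125 ± 13.4 and 102 ± 15.6 and FOXO6 at 78.7 ± 25.7 and 53.0 ± 9.47. FOXK1, which represses autophagy genes and supports glycolysis, had 887, 751 and 627 in the si-CTRL libraries and 432, 487 and 383 in the si-SAM68 libraries. The groups were well apart. FOXK1 fell by 0.79 on the log2 scale (SE 0.14, adjusted p = 0.00925, limma), to 57.5% of the si-CTRL mean. Its paralog FOXK2 was at 2107 ± 335 and 1767 ± 191 (log2 fold change -0.25, adjusted p = 0.232).

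The remaining FOX genes were mostly without a call. FOXD1 was at 3742, 4159.9 and 4685 in the si-CTRL libraries and 3614, 3761 and 4161 in the si-SAM68 libraries (log2 fold change -0.12, adjusted p = 0.462), groups that overlapped. FOXJ3 was at 4224, 3233 and 3209 in the si-CTRL libraries and 3003, 3077 and 2939 in the si-SAM68 libraries (log2 fold change -0.23, adjusted p = 0.208), groups that did not overlap. FOXD4 had few reads, with 17.5, 19.4 and 28.5 in the si-CTRL libraries and 30.2, 39.6 and 38.0 in the si-SAM68 libraries, a log2 fold change of 0.72 (SE 0.29, adjusted p = 0.142, limma). It met the thresholds of the paper, but no longer without si-CTRL replicate 1 or 2 or si-SAM68 replicate 2 or 3, where the log2 fold change was 0.58, 0.65, 0.64 and 0.67. FOXD4 has near-identical copies, and the copy FOXD4L1 was at 38.8 ± 3.39 and 24.0 ± 1.82 (log2 fold change -0.67, adjusted p = 0.108) and met the same thresholds in the other direction, and how reads were divided between the copies is not given in the sources used here, so that both values are uncertain. FOXM1, the cell cycle factor left out of the members, was at 5273 ± 1021 and 4919 ± 204 (log2 fold change -0.08, adjusted p = 0.707).

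**Figure D3:**
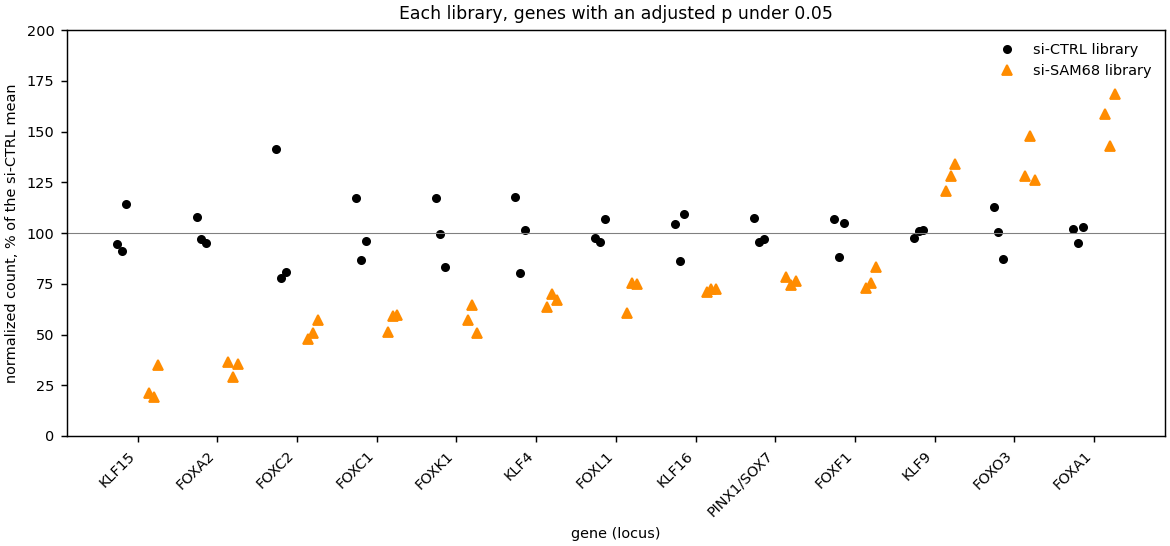
Normalized read count of each library as a percent of the si-CTRL mean (y axis) for the 13 members with an adjusted p-value under 0.05 (x axis), with circles for si-CTRL and triangles for si-SAM68 libraries. KLF15 fell furthest, to 25.1% of the si-CTRL mean, FOXA1 rose most, to 157%, and no circle and triangle of a gene overlap in range.

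Of the SOX genes, 1 locus passed. SOX9, a factor of progenitor cells, had the most reads of all members, with 14479, 12621 and 12798 in the si-CTRL libraries and 11502, 13389 and 14878 in the si-SAM68 libraries. The groups overlapped fully. The log2 fold change of SOX9 was -0.01 (95% interval -0.24 to 0.22, adjusted p = 0.965, limma). SOX4, a factor downstream of TGF-beta signals, had 2798, 3268 and 2916 in the si-CTRL libraries and 3670.0, 3280.3 and 3486 in the si-SAM68 libraries. Its si-SAM68 libraries lay above the others, the closest by a small margin, and its log2 fold change of 0.22 did not pass (adjusted p = 0.140). The locus that joins PINX1, an inhibitor of telomerase, with SOX7 fell from 2282, 2027 and 2058 to 1662, 1579 and 1616 (log2 fold change -0.39, SE 0.083, adjusted p = 0.0178), and the table does not say which of the joined genes the reads came from. The other 7 tested SOX genes had log2 fold changes between -0.42 and 0.72 and adjusted p-values of 0.144 or more.

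Among the KLF genes, 3 fell and 1 rose. KLF15, a factor of glucocorticoid and nutrient responses, was low, with 36.2, 34.9 and 43.7 in the si-CTRL libraries and 8.06, 7.36 and 13.4 in the si-SAM68 libraries. The highest si-SAM68 library was far below the lowest si-CTRL library. The log2 fold change of KLF15 was -1.93 (SE 0.33, adjusted p = 0.00734, limma), which left 25.1% of the si-CTRL mean, and its adjusted p-value was at most 0.0361 with each library left out in turn. KLF4, a factor of epithelial differentiation and of reprogramming, had 1564, 1067 and 1348 in the si-CTRL libraries and 846, 929 and 887 in the si-SAM68 libraries. The si-CTRL libraries were spread more widely than the si-SAM68 libraries, and the groups did not overlap. KLF4 fell by 0.56 on the log2 scale (SE 0.13, adjusted p = 0.0259, limma). KLF16 had 597, 494 and 625 in the si-CTRL libraries and 406, 415 and 414 in the si-SAM68 libraries, a log2 fold change of -0.47 (SE 0.11, adjusted p = 0.0314). KLF9, a target of glucocorticoid and thyroid hormone receptors, rose from 702, 729 and 732 to 870.4, 923 and 965 (log2 fold change 0.35, SE 0.089, adjusted p = 0.0361). With the replicate number as a block, the adjusted p-value of KLF9 was 0.0547.

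The KLF genes with the most reads did not pass. KLF6 was at 4127, 2759 and 2928 in the si-CTRL libraries and 2575, 3056 and 2614 in the si-SAM68 libraries (log2 fold change -0.23, adjusted p = 0.331). KLF13 was at 2651, 2959 and 2664 against 2600.2, 2792 and 2672 (log2 fold change -0.04, adjusted p = 0.816), and KLF3 at 3165, 2080.4 and 2232 against 2354, 2442 and 2263 (log2 fold change -0.06, adjusted p = 0.829). The groups of all 3 overlapped, and si-CTRL replicate 1 held the highest value of KLF6 and KLF3. The remaining 8 tested KLF genes had log2 fold changes between -0.45 and 0.29 and adjusted p-values of 0.125 or more.

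None of the GATA genes passed in limma, while all 4 tested ones had a negative estimate and their highest value in si-CTRL replicate 1. GATA2, a factor of blood progenitors and endothelium, was at 707, 476 and 545 in the si-CTRL libraries and 461, 452 and 346 in the si-SAM68 libraries (log2 fold change -0.45, SE 0.17, adjusted p = 0.115 in limma and 0.0491 in DESeq2). GATA6, a factor of endoderm and heart, was at 365, 277 and 312 against 229, 241 and 261 (log2 fold change -0.38, SE 0.13, adjusted p = 0.107). The groups of both did not overlap. GATA3, the luminal factor, was at 542, 409 and 331 against 366, 415 and 371 (log2 fold change -0.13, adjusted p = 0.669), and its groups overlapped. GATA4 had a log2 fold change of -0.03.

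Levels were compared between genes only per kb of transcript. SOX9 had the highest level of the tested members, with 3380 ± 261 (SD, n = 3) normalized reads per kb in si-CTRL cells, followed by FOXD1 with 1847 ± 208 and FOXF1 with 1140 ± 119, a ranking in which each gene differed from the next by more than their SDs. KLF6 (703 ± 160), FOXJ3 (664 ± 108) and the PINX1 and SOX7 locus (660 ± 43.3) came next and did not differ from each other beyond their SDs. The reads of the PINX1 and SOX7 locus were divided by the transcript length of SOX7 alone, so its value and rank are uncertain. FOXA1 was at 289 ± 12.1 per kb in si-CTRL cells and FOXC1 at 465 ± 72.4, so that the level of FOXA1 per kb was 0.628 ± 0.077 times that of FOXC1. In si-SAM68 cells this ratio was 1.72 ± 0.21. The ratio of FOXA1 to FOXA2 went from 15.9 ± 1.15 to 73.9 ± 4.5, and that of FOXC1 to FOXF2 from 0.792 ± 0.142 to 0.456 ± 0.048. Each ratio was apart in all libraries (exact permutation test, two-sided, p = 0.1, which is as low as 3 libraries against 3 can give, and 0.1 after adjustment over the 3 ratios), and the 3 pairs were chosen after their values were seen.

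**Figure D4:**
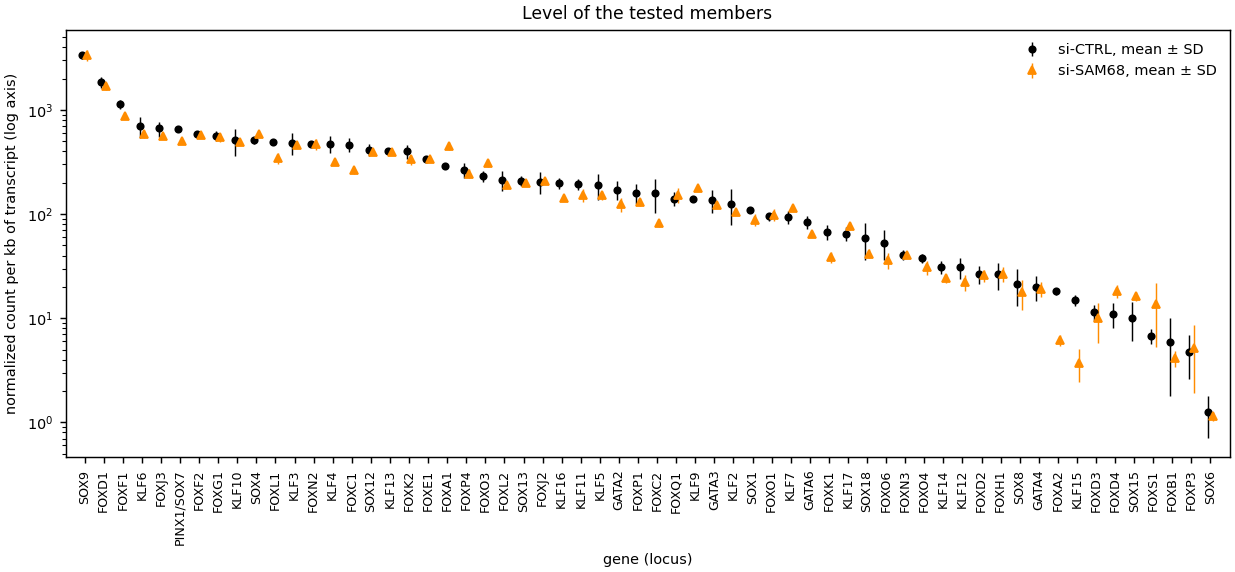
Normalized read count per kb of transcript (y axis, log scale, mean ± SD of 3 libraries) of the tested members, in order of the si-CTRL level along the x axis, with circles for si-CTRL and triangles for si-SAM68. The levels run from 3380 for SOX9 to 1.26 for SOX6 in si-CTRL cells, and the triangles of FOXA2 and KLF15 lie far below their circles. For the joined PINX1 and SOX7 locus the transcript length of SOX7 alone was used.

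Genes that work with these factors were counted in the same fit. Of 7 tested SP factors, which bind the same GC boxes as the KLF proteins, none passed in limma, edgeR or DESeq2 or had an unadjusted p-value under 0.05, and SP1 was at 4668 ± 642 and 4648 ± 319 (log2 fold change 0.00). Of 7 tested GATA partners, 1 fell, where 6.23% of all loci did. This was ZFPM2, a cofactor of GATA proteins, from 226 ± 26.6 to 133 ± 20.6 (log2 fold change -0.76, adjusted p = 0.0181, limma). The median log2 fold change was 0.00 in both lists.

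Of 14 tested regulators of FOXO proteins, 2 passed, both higher, where 4.47% of all loci were higher and 6.23% lower. The median log2 fold change of the list was 0.04, against 0.005 over all loci. The locus that joins SGK3, a kinase related to AKT, with the neighbouring C8orf44 went from 368 ± 33.2 to 506 ± 18.2 (log2 fold change 0.46, adjusted p = 0.0267), and its reads cannot be assigned to SGK3 alone. SKP2, part of a ubiquitin ligase, went from 7792 ± 418 to 9413 ± 257 (log2 fold change 0.27, adjusted p = 0.0418, and 0.0677 with the replicate block). AKT1, the kinase itself, named after its values were seen, had a log2 fold change of -0.29 and an adjusted p of 0.0659, but 0.0495 with the replicate block, where it passes as lower. Of 19 tested FOXO targets, 4 rose and 2 fell (median 0.11), against 4.47% and 6.23% of all loci. ERBB3, the receptor HER3, had the largest change, from 377, 358 and 329 in the si-CTRL libraries to 861, 679.8 and 597 in the si-SAM68 libraries (log2 fold change 0.99, SE 0.14, adjusted p = 0.00297, limma). IRS2, an adaptor of the insulin receptor, rose from 1224 ± 83.7 to 1742 ± 104 and SESN1, a stress protein that restrains mTORC1, from 536 ± 75.1 to 779.6 ± 32.7, with log2 fold changes of 0.51 and 0.55 (adjusted p = 0.00832 and 0.0190). CDKN1A, the cell cycle inhibitor p21, fell from 6000.4, 5526 and 5967 to 3472, 3554 and 3599 (log2 fold change -0.72, adjusted p = 0.000686). TXNIP, an arrestin-like inhibitor of glucose uptake, rose (0.48, adjusted p = 0.00344), while SOD2, the mitochondrial superoxide dismutase, fell (-0.44, adjusted p = 0.0121).

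Of 12 tested luminal genes, 4 rose and 1 fell (median 0.16), against the same shares of all loci. The keratins KRT8, KRT18 and KRT19 and the mucin MUC1 rose, with log2 fold changes of 0.31, 0.35, 0.37 and 0.38, of which KRT8 and MUC1 were past 0.05 with the replicate block (adjusted p = 0.0696 and 0.0615). The locus listed as KRT19 is wide (about 39679900 to 39943000 on chromosome 17), and whether all its reads came from KRT19 was not tested. On chromosome 12 the loci of KRT8 (to about 53343600) and KRT18 (from about 53342700) overlap, so reads may be shared. TFAP2C, a factor that works with FOXA1 and the estrogen receptor, fell from 846, 676 and 696 to 426, 391 and 389 (log2 fold change -0.87, SE 0.12, adjusted p = 0.00209, limma). CA12, a carbonic anhydrase of luminal tumours, met the thresholds of the paper with 178 ± 40.3 and 116 ± 12.4 (log2 fold change -0.60, adjusted p = 0.0656). ESR1 itself was at 8.22 ± 6.67 and 10.0 ± 3.77, with a mean over the 6 libraries under the minimum, and PGR was at 0. Of 14 tested mesenchymal genes, 1 rose and 2 fell (median -0.16), with those shares again as the background. The repressor of epithelial genes ZEB1 fell from 5146 ± 762 to 3314 ± 384 (log2 fold change -0.63, adjusted p = 0.0118), and ACTA2, smooth muscle actin, from 275 ± 40.6 to 168 ± 18.6 (-0.70, adjusted p = 0.0183). CDH2, N-cadherin, rose (0.31, adjusted p = 0.0447, and 0.0592 with the replicate block). Of 13 tested noncoding neighbours of members, FENDRR alone passed, as lower, where 6.23% of all loci did. The median log2 fold change of these neighbours was -0.21, against 0.005 over all loci. FOXP4-AS1 met the thresholds of the paper with 43.6 ± 2.64 and 28.5 ± 10.2 (log2 fold change -0.65, adjusted p = 0.178). Markers of endothelium were near the minimum, with a sum of 3 genes between 49.4 and 76.2 in si-CTRL and between 31.3 and 35.7 in si-SAM68 libraries, and 1 of them, CDH5, met the thresholds of the paper (30.5 and 13.4, adjusted p = 0.0756).

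**Figure D5:**
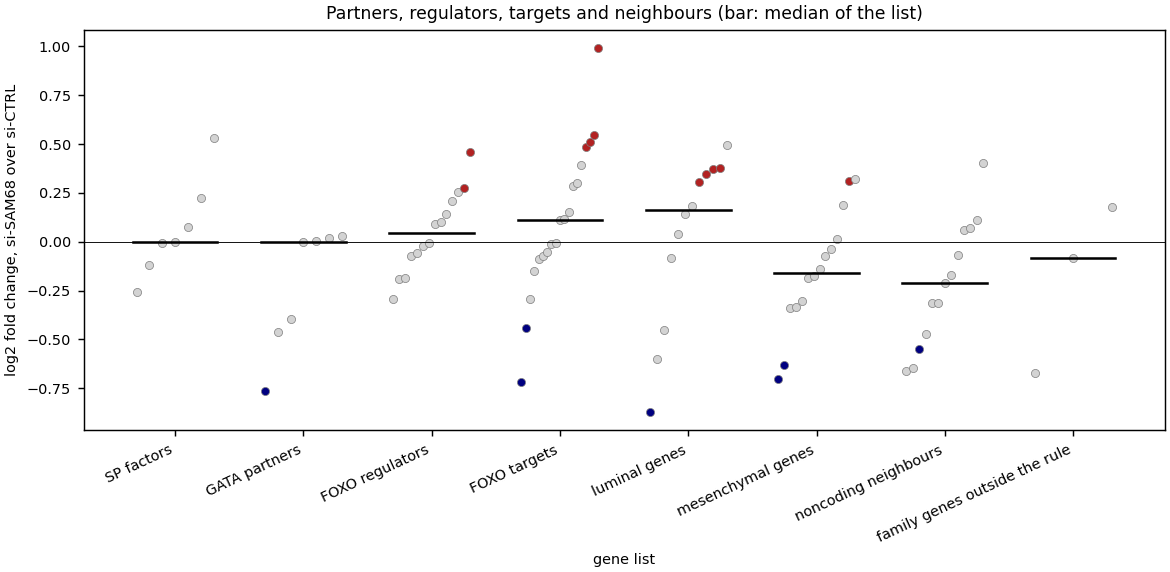
Log2 fold change (y axis) of each tested gene in 8 lists of partners, regulators, targets and neighbours (x axis), with a bar at the median of each list. Red points rose and navy points fell at an adjusted p-value under 0.05, the highest being ERBB3 (0.99) and the lowest TFAP2C (-0.87).

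The calls of single members differed in how far they rested on particular libraries. FOXA1, FOXA2, FOXC1 and KLF15 kept an adjusted p-value under 0.05 with each library left out in turn. FOXK1 lost it only without si-SAM68 replicate 3 (adjusted p = 0.0596). FOXC2 and the PINX1 and SOX7 locus lost it without any 1 of the si-SAM68 libraries, in the order 1, 2 and 3 with 0.1004, 0.0794 and 0.0878 for FOXC2 and 0.0516, 0.0893 and 0.0780 for PINX1 and SOX7. FOXL1 lost it without si-CTRL replicate 3 (0.0555) or si-SAM68 replicate 1 (0.0513) or 3 (0.0515). FOXF1, KLF4 and KLF16 lost it without si-CTRL replicate 3 (0.114, 0.0710 and 0.105) or any si-SAM68 library (at most 0.135, 0.105 and 0.109). FOXO3 and KLF9 lost it without any library but si-CTRL replicate 1 (at most 0.153 and 0.142). Among the list genes, CDKN1A, TXNIP, ERBB3 and TFAP2C kept it throughout, IRS2 lost it without si-SAM68 replicate 3 (0.0541) and ZEB1 without si-SAM68 replicate 1 (0.0521), and the others lost it without at least 2 of the libraries, with at most 0.163 (CDH2 without si-SAM68 replicate 2). Estimates of the named members that passed kept their direction in each of these fits.

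By gene structure, of the 16 tested members with a single exon in the annotation used for lengths, 3 passed, all lower, with a median log2 fold change of -0.10, and of the 44 with more exons 7 fell and 3 rose, with a median of -0.15. Over all tested loci with an exon count, 11.8% of those with 1 exon and 13.4% of those with more had an adjusted p-value under 0.05.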

How the data were processed

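Polyadenylated RNA of MDA-MB-231 cells was sequenced as single-end reads, with 3 libraries per group, grouped and numbered by the sample labels, which name another medium, extraction kit and harvest interval than the methods of the paper. The table deposited by the authors holds a signal, namely the reads on each FAST DB locus (hg19) divided by the DESeq2 size factor of the library. The submitters' processing notes name FastQC, Picard, SAMtools, STAR 2.4.0 and DESeq2, without versions for the others. The counting program and any use of strand are not given in the sources used here. Low values had not been filtered out, since 41493 of the 74852 loci were at 0 in every library. Whole reads were recovered from the values (100% within a tolerance of 0.01 in each library), and replicates of a group differed beyond sampling noise (chi-square of 12.61 or more per degree of freedom). Nothing in the labels says that replicates were separate cultures, so p-values measure the spread between these libraries, which may be technical. The precision is limited by 3 libraries per group and, for members with few reads, by their depth.

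Linear models of limma 3.58.1 (R 4.3.3, lmFit and eBayes, trend on) were fitted to log2(normalized count + 1) for 18849 loci whose mean was 10 or more, without a replicate term. Fold changes are on this scale, which understates those of low genes. Regulated means a fold change of 1.5 or more with an unadjusted p-value of 0.05 or less, and p-values were adjusted over all loci by Benjamini-Hochberg. The members, the lists of genes and the tests were chosen with earlier results of these data known. Named with values per library are members with an adjusted p-value under 0.05, regulated members and the 3 tested members with the most reads in each family. In the lists, up to 5 passing genes each are named by fold change, with ESR1, PGR, SP1 and FOXM1. SOD2, KRT8, FOXO3B, GMDS and the other FOXO, FOXK and chromosome 6 cluster members were named after their values were seen. Of the noncoding neighbours listed, 3 were not matched to a symbol and are not analysed here.

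Deviations from the group means correlated between libraries of the same number (0.105, 0.231 and 0.125) and at most 0.007 between others, so libraries of 1 number were treated as pairs in an alternative with the number as a block. The other alternatives were pseudocounts of 0.1 and 5, no filter, a minimum mean of 50, TMM factors, quantile normalization, eBayes without a trend or robust, a fold change of 2, each library left out, and edgeR 4.0.16 and DESeq2 1.42.0 on the recovered reads, which called 2026 and 2811 of all loci at an adjusted p-value under 0.05. Levels per kb use the transcript length of GENCODE genes matched by symbol, and on joined loci that of the member alone. Programs were tested on simulated counts, where loci left unchanged made up a larger share of the calls than the adjusted p-value threshold implies in limma, edgeR and DESeq2.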

Additional observations from a re-analysis of the deposited data

How the results depend on the processing

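The named members that passed kept their direction under every alternative run, and FOXA1, FOXA2 and FOXC1 kept their call wherever they were tested. When 1 library was left out, between 4 and 15 members had an adjusted p-value under 0.05. The regulated members, 2 higher and 5 lower, were 1 higher with DESeq2, 1 higher and 3 lower with a minimum mean of 50 (which removes FOXA2, FOXD4 and KLF15), 0 higher and 2 lower at a fold change of 2, and 1 to 2 higher and 5 to 7 lower with each library left out. The members with an adjusted p-value under 0.05, 3 higher and 10 lower, were 1 higher and 3 lower with eBayes without a trend, 1 higher with no filter, and 1 to 4 higher and 3 to 11 lower with each library left out. Over all lists, 11 genes were higher and 7 lower. The number higher was 3 with eBayes without a trend, 7 with no filter, 7 with the replicate block and 2 to 13 with each library left out, and the number lower was 13 with DESeq2 and 3 to 9 with each library left out. Beside KLF9, the replicate block ended no call of a member, and 12 of the 13 kept it. In the lists it ended the calls of SKP2, KRT8, MUC1, CDH2 and FENDRR and gave AKT1 one. DESeq2 gave no adjusted p-value for KLF15. With each library left out, the log2 fold change of 4 members without a call changed sign, from -0.30 to 0.059 for GATA3 (positive without si-CTRL replicate 1), -0.063 to 0.016 for KLF13 (without si-CTRL replicate 2), -0.18 to 0.13 for KLF3 (without si-CTRL replicate 1) and -0.097 to 0.089 for SOX9 (without replicate 1 of either group). Where an alternative does not itself remove genes or libraries, the cause was not tested. Depth limits the statements on the 25 members that were not tested.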
